A study of Homo sapiens with 13 samples.

Results

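The 39 genes described here encode proteins of homologous recombination and of the Fanconi anaemia pathway, with a pair of end-joining genes (POLQ and XRCC4) beside them. They were taken by gene symbol from an expression table of 26454 genes. Each of the 39 had a row, and all 39 were among the 15707 genes that passed the filter on low values. As the table lists them their gene bodies run from 2.807 kb (RAD51C) to 678.102 kb (RAD51B), with a median of 41.208 kb, against a median of 22.33 kb over all genes tested.

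Homologous recombination mends broken DNA by copying from an intact sister chromatid. The ends are first trimmed by nucleases, BRCA1, BRCA2 and their partners then prepare the exposed strand for strand exchange, and helicases and nucleases take the joined molecules apart again. The Fanconi pathway acts where the strands of a DNA helix are cross-linked: a core complex attaches ubiquitin to FANCD2 and FANCI, and nucleases then cut the cross-link out and hand the break to homologous recombination. CDK12 is a cyclin-dependent kinase that phosphorylates RNA polymerase II during elongation, and its loss is known for lowering the transcripts of long DNA repair genes, BRCA1 among them.

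All libraries came from U2OS, a human osteosarcoma cell line, and every culture had been transfected with an siRNA for 48 h. CDK12 siRNA cells, cells with control siRNA plus rapamycin (an inhibitor of the mTOR kinase complex, 50 ng/ml for 24 h), and control siRNA cells were each measured in total RNA (2 libraries per condition) and in RNA recovered by immunoprecipitation (IP) of eIF4G, the translation initiation scaffold. The IP had 2 CDK12 siRNA, 2 rapamycin and 3 control libraries. The labels give the CDK12 siRNA cells and the control cells a mock treatment in place of rapamycin, without saying what it was. The labels do not say that replicates were separate cultures, so the p-values measure the spread between libraries, which may be technical, and the rapamycin libraries carry another date code than the rest, so that date and rapamycin cannot be told apart. An IP without the eIF4G antibody was not analysed here, so an IP level is not set against nonspecific recovery. The comparisons ask which repair transcripts changed in the cells after each treatment, and whether their representation among eIF4G-bound RNA changed in the same way.

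Depth ran from 12.9 to 30.6 (in units of 1e6 tags) over the 13 libraries, and members held from 28.0 tags (FANCF, in replicate 2 of the CDK12 siRNA total RNA) upward, with 25 members at 100 tags or more in every library. Levels are FPKM over the whole gene body, introns included, so a gene with long introns has a low FPKM even where its spliced RNA is plentiful, and total RNA also holds unspliced RNA. Changes are given as log2 ratios with the SE of a limma fit to log2(FPKM + 0.1) after scaling between libraries, with Benjamini-Hochberg adjusted p-values over all genes tested and a threshold of 0.05. The added 0.1 shrinks the changes of genes with low FPKM, and unequally where a gene's FPKM differs between total RNA and IP. RAD51B and FANCC, at 0.056 to 0.101 FPKM in the CDK12 siRNA and control IP, stood near that 0.1. FPKM are shares of a library, and in bulk samples fewer cells of a type and less RNA per cell cannot be told apart. The CDK12 siRNA IP replicates differed more than any other pair (chi-square per degree of freedom 57.6, against 3.53 to 22.4 for the other pairs). Of 8 mesenchymal markers, 4 or 5 reached 1 FPKM in each library and TWIST1 was listed at 0 in all of them. Summed FPKM of 10 epithelial, blood and neuronal markers was 0.493 to 2.26 per library.

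The siRNA target was lower in the CDK12 siRNA libraries. CDK12 (chr17:37617764-37690818 in hg19) stood at 0.706 and 0.707 FPKM in total RNA after CDK12 siRNA, against 1.64 and 1.72 FPKM in control total RNA, a log2 change of -0.92 ± 0.12 (limma, adjusted p = 0.00018). Its IP level was 0.493 and 0.338 FPKM after CDK12 siRNA and 0.497, 0.532 and 0.535 FPKM in control, a change of -0.46 ± 0.11 (limma, adjusted p = 0.015). The IP call was lost without replicate 3 of the CDK12 siRNA IP (-0.25, adjusted p = 0.079).

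After CDK12 siRNA most of the repair genes fell in total RNA, and the falls were deep. Of the 39 members 28 fell and 3 rose, beside 21.6% of all genes tested that fell and 26.1% that rose. The members' median change was -1.13, against 0.06 over all genes tested, and the median member was left with 33.0% of its control FPKM. BRCA1 kept the least, 10.9%, and XRCC4 stood highest, at 176%. In 32 members both CDK12 siRNA libraries lay below both controls and in 4 above them, beside 35.6% and 44.5% of all genes tested. Such counts use scaled values, while percentages of control and levels use the deposited FPKM, and they can differ in direction: WRN, PALB2, RAD51B and XRCC3 stood at 84.6% to 90.8% of their control FPKM, with scaled changes of 0.08, 0.09, 0.02 and 0.00. The falls covered 8 of 9 Fanconi core genes, 3 of 3 genes of the FANCD2, FANCI and FAN1 group, 4 of 5 genes of the BRCA group, 5 of 6 helicase and junction genes and 5 of 9 strand-exchange genes. Among the 5 resection genes 2 fell and 2 rose. PALB2, WRN, RAD51B, RAD51C, RAD51D, XRCC3, RBBP8 and FANCL did not pass the test, with changes between -0.39 and 0.09.

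In the eIF4G IP the same siRNA left smaller differences. Of the 39 members 15 fell and 2 rose, beside 15.7% and 9.8% of all genes tested, and the median change was -0.25 against -0.05 over all genes. The rises numbered 5 without replicate 2 of the CDK12 siRNA IP, and 1 without its replicate 3 or without replicate 2 of the control IP. The median member kept 96.4% of its control IP FPKM, from 45.1% for EXO1 to 211% for RAD51D. CDK12 siRNA and control libraries did not overlap in 19 members that were lower and 3 that were higher, beside 28.4% and 18.8% of all genes tested. Of the 28 genes that fell in total RNA, 14 also fell in the IP, 13 did not pass the test there, and FAN1 rose. Among all genes tested 3385 fell in total RNA. Of those 905 also fell in the IP, 2227 did not pass the test there and 253 rose. RBBP8 fell in the IP (-0.53 ± 0.10) and did not pass the test in total RNA (-0.19 ± 0.11). Across the 39 members, which share libraries, the change in total RNA and the change in the IP had a rank correlation of 0.64, against 0.15 across all genes tested. These rest on different libraries.

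The difference between both changes was tested directly, as the interaction of siRNA and fraction. The change in the IP was higher than the change in total RNA in 27 members and lower in 3, beside 16.9% and 24% of all genes tested, with a median of 0.92 against -0.09. The total RNA change enters this difference with its sign reversed, so a fall there raises it and a rise lowers it. Of the 28 members that fell in total RNA, 26 had a higher IP change, beside 61.1% of all genes that fell there. The 27 include every member of the BRCA group except PALB2, every Fanconi core gene except FANCL, and FANCD2, FANCI and FAN1. XRCC4, RAD50 and NBN, the genes that rose in total RNA, were the 3 with the lower IP change. For FANCI and BRIP1 the interaction was 1.43 ± 0.12 and 1.64 ± 0.14 (limma, adjusted p = 4.5e-05 and 4.7e-05). For POLQ and BLM it was 1.26 ± 0.14 and 1.21 ± 0.14 (limma, adjusted p = 0.00017 and 0.00017). For FANCD2 and XRCC4 it was 1.14 ± 0.14 and -1.13 ± 0.14 (limma, adjusted p = 0.00027 and 0.00027). Without scaling between libraries the RAD50 and NBN differences were lost (-0.39 and -0.08), which left XRCC4, and the NBN difference was also lost when any of 4 single libraries was left out. Among the 27, the calls of FANCA, FANCC, RAD51D, RAD52 and RAD54B were lost in at least 1 fit without a single library.

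**Figure D1:**
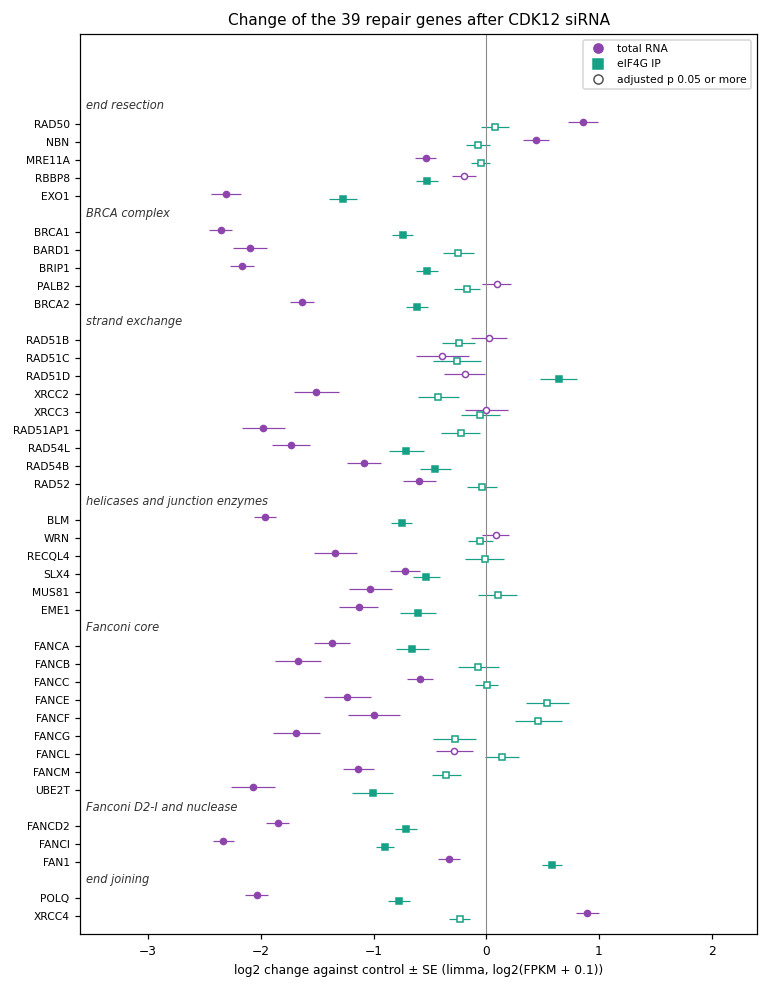
Log2 change after CDK12 siRNA against control, ± SE from limma, for each of the 39 repair genes, grouped by role, in total RNA (circles) and in the eIF4G IP (squares). Filled symbols passed the adjusted threshold of 0.05. Most circles lie left of 0, down to -2.36 for BRCA1, and most squares lie nearer to 0.

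Within the resection group the genes moved apart. RAD50, NBN and MRE11A encode the complex that first binds broken ends. RAD50 (chr5:131892616-131980313 in hg19, 87.697 kb) stood at 1.37 and 1.43 FPKM in total RNA after CDK12 siRNA, against 0.839 and 0.902 FPKM in control. Its total RNA level was thus higher in both treated libraries, by 0.86 ± 0.13 (limma, adjusted p = 0.00052), while in the IP its change was 0.08 ± 0.12. NBN (51.335 kb) rose in total RNA by 0.44 ± 0.11 and stood at -0.07 ± 0.10 in the IP. That rise was lost without scaling (0.20), without replicate 2 of the CDK12 siRNA total RNA (0.43, adjusted p = 0.057) and without replicate 1 of the control total RNA (0.39, adjusted p = 0.071). MRE11A (76.571 kb), the nuclease of the complex, fell in total RNA by 0.54 on the log2 scale, and its IP change was -0.05 ± 0.08. RBBP8, also known as CtIP, which starts resection, spans 93.154 kb.

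EXO1, the exonuclease that extends resection, lost most of its signal in both fractions. It lies at chr1:242012033-242053241 in hg19 (41.208 kb). Its total RNA level was 0.215 and 0.247 FPKM after CDK12 siRNA, against 1.75 and 1.75 FPKM in control. The total RNA change was -2.31 ± 0.13 (limma, adjusted p = 6.7e-07). In the IP it stood at 1.03 and 0.815 FPKM after CDK12 siRNA, against 2.04, 2.21 and 1.90 FPKM in control, and the groups did not overlap. The IP change of -1.27 ± 0.12 (limma, adjusted p = 0.00014) was the lowest of all 39 members in that fraction, and was still 1.04 ± 0.18 above the change in total RNA.

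BRCA1 and its partners fell together in total RNA. BRCA1, a ubiquitin ligase that promotes resection, lies at chr17:41196312-41276132 in hg19 (79.82 kb). In total RNA it stood at 0.146 and 0.118 FPKM after CDK12 siRNA, against 1.16 and 1.25 FPKM in control, a change of -2.36 ± 0.10 (limma, adjusted p = 1.5e-07). Its IP level was 0.308 and 0.302 FPKM after CDK12 siRNA, against 0.485, 0.505 and 0.516 FPKM in control, a change of -0.74 ± 0.09 (limma, adjusted p = 0.0006). The treated libraries lay below every control library in both fractions, and the interaction was 1.61 ± 0.14 (limma, adjusted p = 4.1e-05). BARD1 (84.065 kb), the stable partner of BRCA1, was left with 0.229 and 0.235 FPKM in total RNA after CDK12 siRNA, against 1.47 and 1.53 FPKM in control. Its IP values, 0.910 and 1.30 FPKM after CDK12 siRNA and 1.16, 1.18 and 1.07 FPKM in control, overlapped. BARD1 therefore changed by -2.10 ± 0.15 in total RNA and by -0.25 ± 0.14 in the IP, the highest interaction of the 39 genes (1.85 ± 0.21, limma, adjusted p = 0.00016).

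BRIP1 and BRCA2 fell in both fractions, and PALB2 passed the test in neither. BRIP1, a helicase bound to BRCA1 that is also called FANCJ, lies at chr17:59756547-59940920 in hg19 and at 184.373 kb is among the 6 members over 100 kb. It stood at 0.299 and 0.306 FPKM in total RNA after CDK12 siRNA, against 1.92 and 1.98 FPKM in control (change -2.16 ± 0.11, limma, adjusted p = 3.1e-07). Its IP change was -0.52 ± 0.10, a call lost with library weights (-0.53, adjusted p = 0.094). BRCA2, which prepares the trimmed strand for strand exchange, lies at chr13:32889617-32973809 in hg19 (84.192 kb). In total RNA it stood at 0.238 and 0.277 FPKM after CDK12 siRNA, against 1.17 and 1.15 FPKM in control (change -1.64 ± 0.11, limma, adjusted p = 1.6e-06). In the IP BRCA2 stood at 0.134 and 0.160 FPKM after CDK12 siRNA, against 0.226, 0.246 and 0.254 FPKM in control (change -0.61 ± 0.10, limma, adjusted p = 0.0019). Again no treated library reached a control library. The BRCA2 call in the IP was lost on log2(FPKM + 1) with a filter at FPKM of at least 1 (-0.13, limma, adjusted p = 0.077). PALB2 (38.195 kb), which bridges BRCA1 and BRCA2, stood at 0.425 and 0.407 FPKM in total RNA after CDK12 siRNA and at 0.410 and 0.506 FPKM in control, which overlapped.

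**Figure D2:**
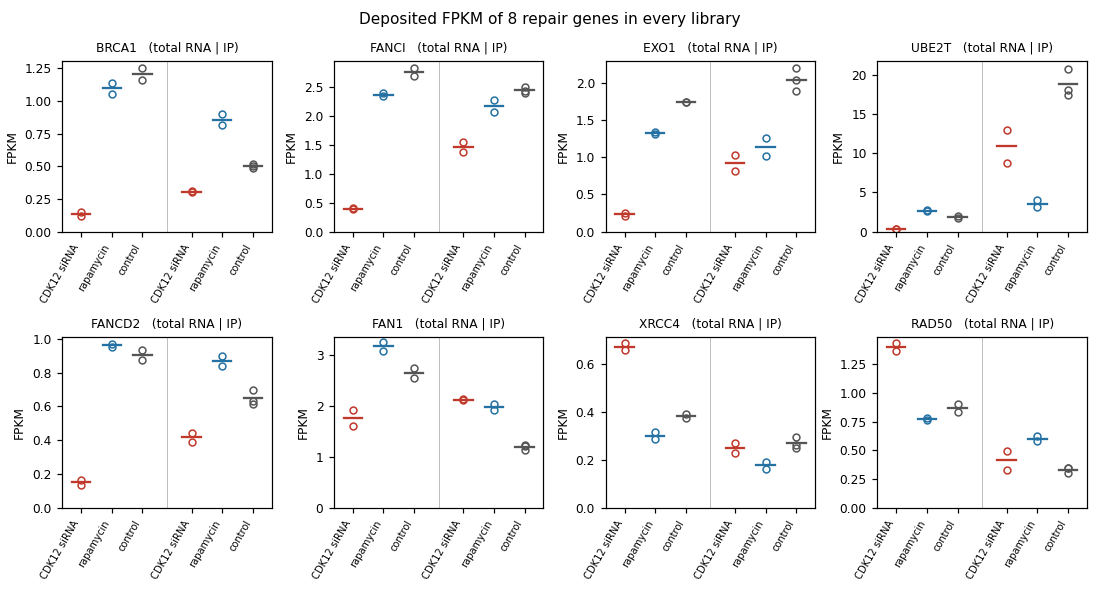
Deposited FPKM of 8 repair genes in each of the 13 libraries, total RNA on the left of each panel and the eIF4G IP on the right, with 1 circle per library and a line at the group mean. BRCA1, FANCI, EXO1, UBE2T and FANCD2 were lower after CDK12 siRNA in both fractions, FAN1 was lower in total RNA and higher in the IP, and XRCC4 and RAD50 were higher in total RNA.

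Among the strand-exchange genes 5 fell in total RNA, and 4 did not pass the test. Those 4, RAD51B (678.102 kb), RAD51C (2.807 kb), RAD51D (20.077 kb) and XRCC3 (17.869 kb), which encode subunits of related strand-exchange complexes, stood at changes of 0.02 ± 0.16, -0.39 ± 0.24, -0.19 ± 0.18 and 0.00 ± 0.19. XRCC2 (29.663 kb), another such subunit, fell by 1.51 on the log2 scale in total RNA. RAD51AP1 (21.263 kb), which stimulates strand exchange, stood at 0.453 and 0.380 FPKM in total RNA after CDK12 siRNA, against 2.30 and 2.16 FPKM in control (change -1.98 ± 0.19). Its IP change was -0.23 ± 0.17. The translocases that assist strand exchange, RAD54L (30.778 kb) and RAD54B (64.992 kb), fell in total RNA by 1.73 and 1.09 on the log2 scale and in the IP by 0.71 and 0.45. The RAD54B call in the IP was lost when any of 8 single libraries was left out. The RAD54L call there was lost when only the compared groups were fitted (-0.65, limma, adjusted p = 0.062). RAD52 (37.986 kb), which anneals complementary strands, fell in total RNA by 0.59 on the log2 scale and stood at -0.04 ± 0.13 in the IP. RAD51D rose in the IP by 0.64 ± 0.17 (limma, adjusted p = 0.019), a call lost without replicate 3 of the CDK12 siRNA IP (0.35, adjusted p = 0.13) and without replicate 2 of the control IP (0.54, adjusted p = 0.056). The RAD51D row lies entirely within that of the read-through gene RAD51L3-RFFL. RAD51C is listed over a short interval, that of a short transcript, although the gene is known to be longer, as is also the case for FANCA and FAN1.

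Among the helicases and junction enzymes BLM fell most. BLM, the Bloom syndrome helicase, which dissolves joined DNA molecules, lies at chr15:91260558-91358692 in hg19 (98.134 kb). In total RNA it stood at 0.112 and 0.125 FPKM after CDK12 siRNA, against 0.832 and 0.836 FPKM in control (change -1.96 ± 0.10, limma, adjusted p = 3.8e-07). In the IP it stood at 0.207 and 0.215 FPKM after CDK12 siRNA, against 0.343, 0.412 and 0.355 FPKM in control (change -0.75 ± 0.09, limma, adjusted p = 0.00054). Neither fraction had any overlap between the groups. RECQL4 (6.543 kb), a related helicase, fell in total RNA by 1.34 on the log2 scale and had an IP change of -0.02 ± 0.17. MUS81 (6.042 kb) and EME1 (8.239 kb), the partners in a nuclease that cuts joined molecules, fell in total RNA by 1.03 and 1.13 on the log2 scale. In the IP EME1 fell by 0.60 on that scale, a call lost without replicate 2 of the CDK12 siRNA IP (-0.43, adjusted p = 0.11) and without replicate 2 of the control IP (-0.55, adjusted p = 0.058), and MUS81 stood at 0.10 ± 0.17. SLX4 (30.401 kb), a scaffold for such nucleases, fell in total RNA by 0.72 and in the IP by 0.53 on the log2 scale. Without replicate 3 of the CDK12 siRNA IP the SLX4 change in the IP was -0.39 (adjusted p = 0.076). WRN (140.499 kb), the Werner syndrome helicase, stood at 0.625 and 0.612 FPKM in total RNA after CDK12 siRNA, against 0.710 and 0.662 FPKM in control, where its scaled change was 0.08 ± 0.12, and it passed the test in neither fraction.

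The Fanconi core genes fell almost throughout in total RNA and seldom in the IP. In total RNA the changes were -1.67 ± 0.20 for FANCB (29.655 kb), -1.37 ± 0.16 for FANCA (18.298 kb), -1.68 ± 0.21 for FANCG (6.178 kb), -1.23 ± 0.21 for FANCE (14.743 kb) and -0.99 ± 0.23 for FANCF (3.308 kb), all of them scaffold or adaptor subunits. FANCC (218.655 kb), another such subunit, stood at -0.59 ± 0.11, and FANCM (64.951 kb), the translocase that anchors the complex to DNA, at -1.13 ± 0.14. FANCL (82.137 kb), the ubiquitin ligase subunit, was the exception at -0.28 ± 0.17. In the IP FANCA fell by 0.65 on the log2 scale (-0.61 and adjusted p = 0.050 without replicate 3 of the CDK12 siRNA IP), and FANCB, FANCC, FANCE, FANCF, FANCG, FANCL and FANCM did not pass the test. FANCE and FANCF were listed at 1.14 and 2.02 FPKM and at 4.08 and 7.46 FPKM in the CDK12 siRNA IP, a wide spread within the pair, against 0.859 to 0.897 FPKM and 3.33 to 3.52 FPKM in the control IP.

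UBE2T, the conjugating enzyme that supplies ubiquitin to FANCL, fell in both fractions, and its FPKM was far higher in the IP than in total RNA. It lies at chr1:202300785-202311094 in hg19 (10.309 kb). In total RNA it stood at 0.319 and 0.305 FPKM after CDK12 siRNA, against 1.71 and 2.04 FPKM in control (change -2.07 ± 0.20, limma, adjusted p = 2.1e-05). In the IP it stood at 8.82 and 13.01 FPKM after CDK12 siRNA, against 20.8, 18.1 and 17.5 FPKM in control (change -1.01 ± 0.18, limma, adjusted p = 0.0034). The interaction of 1.06 ± 0.27 depends on the pseudocount, since on log2(FPKM + 1) it was 0.12 (adjusted p = 0.69).

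FANCD2 and FANCI, the clamp that the core complex marks with ubiquitin, fell together, and FAN1 did not follow them in the IP. FANCD2 (chr3:10068113-10143614 in hg19, 75.501 kb) stood at 0.138 and 0.165 FPKM in total RNA after CDK12 siRNA, against 0.934 and 0.877 FPKM in control (change -1.85 ± 0.10, limma, adjusted p = 6.1e-07). In the IP it stood at 0.392 and 0.442 FPKM after CDK12 siRNA, against 0.616, 0.700 and 0.632 FPKM in control (change -0.71 ± 0.09, limma, adjusted p = 0.00083). FANCI (chr15:89787194-89860362 in hg19, 73.168 kb) stood at 0.400 and 0.390 FPKM in total RNA after CDK12 siRNA, against 2.68 and 2.83 FPKM in control (change -2.33 ± 0.09, limma, adjusted p = 1.1e-07). In the IP FANCI stood at 1.55 and 1.38 FPKM after CDK12 siRNA, against 2.43, 2.50 and 2.39 FPKM in control (change -0.90 ± 0.08, limma, adjusted p = 0.00013). For both genes the treated libraries lay below every control library in each fraction. FAN1, a nuclease recruited by the ubiquitin-marked clamp, is listed at 7.915 kb (chr15:31196076-31203991 in hg19). Its total RNA level was 1.60 and 1.92 FPKM after CDK12 siRNA, against 2.74 and 2.55 FPKM in control, and its IP level was 2.13 and 2.11 FPKM after CDK12 siRNA, against 1.13, 1.21 and 1.24 FPKM in control. The IP rise of 0.58 ± 0.09 (limma, adjusted p = 0.0016) went with a total RNA change of -0.33 ± 0.10 (limma, adjusted p = 0.017), and that fall was lost without replicate 1 of the CDK12 siRNA total RNA (-0.20, adjusted p = 0.18) and without either control total RNA library (-0.31 and -0.36).

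The end-joining genes moved in opposite directions in total RNA. POLQ, the polymerase of error-prone end joining, lies at chr3:121150273-121264853 in hg19 (114.58 kb). In total RNA it stood at 0.246 and 0.241 FPKM after CDK12 siRNA, against 1.47 and 1.52 FPKM in control (change -2.04 ± 0.10, limma, adjusted p = 3.8e-07). POLQ in the IP stood at 0.176 and 0.213 FPKM after CDK12 siRNA, against 0.366, 0.350 and 0.339 FPKM in control (change -0.77 ± 0.10, limma, adjusted p = 0.00056). XRCC4, the partner of DNA ligase IV in classical end joining, lies at chr5:82373317-82649579 in hg19 (276.262 kb). It stood at 0.688 and 0.660 FPKM in total RNA after CDK12 siRNA, against 0.375 and 0.390 FPKM in control (change 0.90 ± 0.10, limma, adjusted p = 7.1e-05). In the IP XRCC4 stood at 0.269 and 0.229 FPKM after CDK12 siRNA, against 0.250, 0.296 and 0.263 FPKM in control, and these values overlapped as deposited (change -0.24 ± 0.09, limma, adjusted p = 0.092). Both XRCC4 and POLQ are among the long members, so the longest genes held a deep fall and the highest rise.

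Length in the table did not order the changes after CDK12 siRNA. Across the 39 members gene body length and the total RNA change had a rank correlation of 0.06, against 0.16 across all 15707 genes tested, and 0.12 across the members without RAD51C, FANCA and FAN1. For the IP change the rank correlation was -0.23 among members and -0.12 among all genes. Of the 7 members under 10 kb, 6 fell in total RNA, and their class had a member median of -1.03. Among all genes of that class 22.8% fell, and the median was -0.09. Of the 6 members over 100 kb, BRIP1, POLQ and FANCC fell, XRCC4 rose and RAD51B and WRN did not pass the test, with a median of -0.28. Among all genes over 100 kb 15.6% fell and 42.9% rose in total RNA. The 18 members of 30 to 100 kb, which include BRCA1, BRCA2, BLM, FANCD2 and FANCI, had 13 falls and 2 rises. Among all genes of that class 21.1% fell and 32.9% rose. The median was -1.11 for these members, against 0.14 for all genes of the class.

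**Figure D3:**
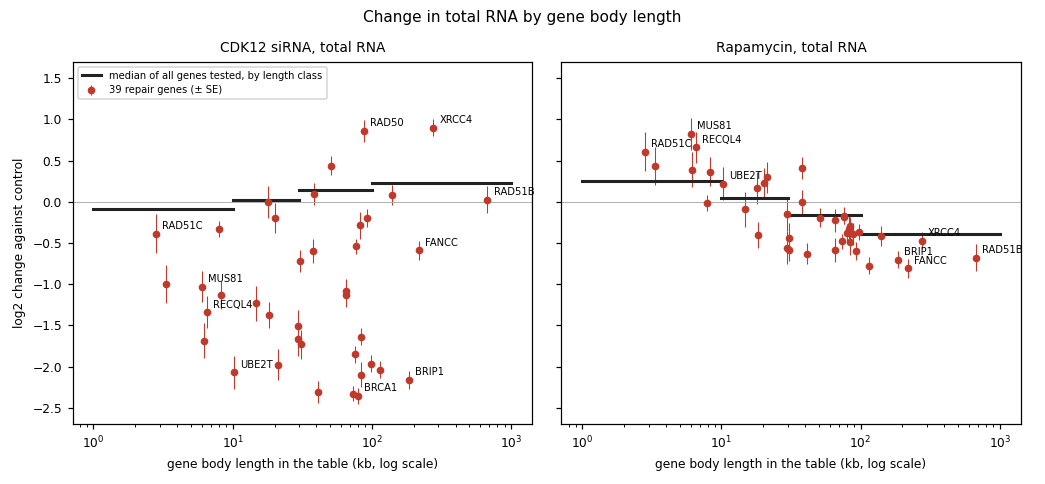
Log2 change in total RNA against gene body length (log axis, kb) for the 39 repair genes, with the SE from limma, after CDK12 siRNA on the left and with rapamycin on the right. Black lines give the median of all genes tested in 4 length classes. After CDK12 siRNA low values occur at every length up to the 184.373 kb of BRIP1, and with rapamycin all 6 members over 100 kb lie below 0.

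Further genes of the same pathways were counted in the same way. Of 52 further genes of homologous recombination, the Fanconi pathway and end joining, 50 were tested. In total RNA after CDK12 siRNA 22 fell and 6 rose with a median change of -0.36. In the IP 21 fell and 1 rose with a median of -0.26. Of all genes tested 21.6% fell and 26.1% rose in total RNA, and 15.7% fell and 9.8% rose in the IP. USP1, the enzyme that removes ubiquitin from FANCD2, fell by 1.35 on the log2 scale in total RNA and by 0.56 in the IP, and LIG4, the ligase that works with XRCC4, rose in total RNA by 0.51 ± 0.16. The IP change was higher than the total RNA change in 14 of the 50 and lower in 8, beside 16.9% and 24% of all genes tested.

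Genes of S phase moved with the members. All 16 listed S phase and proliferation genes fell in total RNA after CDK12 siRNA with a median of -1.95, and their summed level was 25.1 and 24.1 FPKM after CDK12 siRNA, against 136 and 131 FPKM in control. In the IP 12 of the 16 fell with a median of -0.58, and the sum was 210 and 219 FPKM after CDK12 siRNA, against 343, 339 and 324 FPKM in control. The IP change was higher than the total RNA change in 14 of the 16, beside 16.9% of all genes tested. Of all genes tested 21.6% fell in total RNA and 15.7% in the IP. Many repair genes are known to be transcribed mainly in cycling cells, and the part of the S phase genes in the members' changes was not tested. Summed FPKM of the 8 mesenchymal markers was 63.4 and 64.9 in total RNA after CDK12 siRNA and 117 and 108 in control, and its part was likewise not tested.

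Promoter sequences are shown since many members moved together. RefSeq windows of GRCh38.p14, from 250 bases before to 50 bases after each gene's start, were matched for 34 of the 39 members, all but NBN, RAD54B, WRN, RECQL4 and FANCI. The letters TTTCCCGC, TTTGGCGC, TTTCGCGC or TTTGCCGC, on either strand, are forms of the site of the E2F factors, which drive genes at the start of S phase. They occurred in 5 of 34 windows (14.7%), those of EXO1, FANCA, FANCC, FANCD2 and XRCC2, beside 3.32% of all 35097 windows. All windows here means every RefSeq window, not only those of the genes tested, so the sets compared are unlike. All 5 genes fell in total RNA after CDK12 siRNA, as did 25 of the 34 genes matched. CCAAT occurred in 14 of 34 member windows (41.2%) beside 34.6% of all windows, and TTTGAA or TTCGAA in 4 of 34 (11.8%) beside 16.4%. No motif searched contains another. A match of letters is a description and shows neither binding nor a cause. Stretches of the 5 windows with E2F letters are given on the strand of the gene with those letters in capitals, followed by RAD50 and XRCC4, which rose in total RNA and hold none of the E2F letters.
EXO1 (chr1:241848134-241848233, plus strand): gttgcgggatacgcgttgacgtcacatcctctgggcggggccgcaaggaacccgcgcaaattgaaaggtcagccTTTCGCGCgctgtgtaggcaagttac
XRCC2 (chr7:152676112-152676211, minus strand): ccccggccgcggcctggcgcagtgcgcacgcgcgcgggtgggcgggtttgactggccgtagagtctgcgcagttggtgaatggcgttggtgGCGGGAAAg
FANCD2 (chr3:10026367-10026466, plus strand): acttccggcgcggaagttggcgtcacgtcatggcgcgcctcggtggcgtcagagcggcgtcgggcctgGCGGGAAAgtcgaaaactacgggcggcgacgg
FANCA (chr16:89816748-89816847, minus strand): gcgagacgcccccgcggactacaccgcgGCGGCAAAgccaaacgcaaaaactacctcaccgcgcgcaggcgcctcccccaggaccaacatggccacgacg
FANCC (chr9:95317710-95317909, minus strand): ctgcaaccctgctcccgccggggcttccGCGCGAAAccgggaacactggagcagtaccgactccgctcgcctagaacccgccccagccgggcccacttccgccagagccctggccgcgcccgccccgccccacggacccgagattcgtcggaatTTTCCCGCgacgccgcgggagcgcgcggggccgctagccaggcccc
RAD50 (chr5:132556907-132557006, plus strand): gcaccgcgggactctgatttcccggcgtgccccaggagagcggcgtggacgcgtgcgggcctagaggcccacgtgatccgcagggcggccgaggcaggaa
XRCC4 (chr5:83077477-83077576, plus strand): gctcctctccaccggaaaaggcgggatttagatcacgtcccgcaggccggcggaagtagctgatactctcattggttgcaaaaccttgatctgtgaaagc

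In control cells most members stood lower in the IP than in total RNA. Of the 39, 26 were lower in the IP and 7 higher, beside 41.6% and 38.9% of all genes tested, with a median of -0.89 against -0.05. The ratio of IP over total FPKM ran from 0.110 for FANCC to 12.3 for RAD51C, with a median of 0.477. FANCC (chr9:97861336-98079991 in hg19) stood at 0.059, 0.075 and 0.074 FPKM in the control IP, against 0.658 and 0.606 FPKM in control total RNA (difference -2.06 ± 0.10, limma, adjusted p = 7.1e-08). BRCA2 and POLQ differed by -1.78 ± 0.10 and -1.71 ± 0.10 (limma, adjusted p = 9.7e-08 and 1.1e-07). RAD51C and UBE2T were the members with the highest IP share, and the RAD51C value covers only the short interval listed for that gene. RAD51C (chr17:56769934-56772741 in hg19), which acts in several strand-exchange complexes, stood at 43.9, 36.5 and 32.1 FPKM in the control IP, against 3.56 and 2.52 FPKM in control total RNA (difference 3.72 ± 0.21, limma, adjusted p = 1.3e-07). For UBE2T the difference was 3.40 ± 0.18 (limma, adjusted p = 8.7e-08). The difference fell with gene body length among members (rank correlation -0.51) and among all genes tested (-0.41), and tags in gene bodies made up 91.4% to 98.1% of the IP libraries and 80.8% to 87.7% of the total RNA libraries. After CDK12 siRNA the median IP over total ratio of the 39 genes was 1.21, and with rapamycin 0.771.

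In total RNA with rapamycin 16 of the 39 members fell and 3 rose, beside 22.3% and 16.3% of all genes tested. Without scaling between libraries 6 members fell and 8 rose, beside 1794 and 5171 of all 15707 genes tested. With scaling the members had a median change of -0.30 against -0.04. The median member stood at 96.9% of its control FPKM. Rapamycin and control libraries did not overlap after scaling in 26 lower and 11 higher members, beside 43.8% and 36.6% of all genes tested. Among the lower ones NBN, MRE11A, FANCB, FANCD2, FANCM and FANCE stood at 102% to 113% of control in deposited FPKM. The counts also depend on single libraries, since 6 fell without replicate 1 of the rapamycin total RNA and 8 or 10 without a control total RNA library. Rises numbered 1 without either rapamycin total RNA library or without replicate 2 of the control total RNA, and 6 without either CDK12 siRNA IP library. The control libraries are those that CDK12 siRNA was set against, so both comparisons share them.

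Several of the members that fell with rapamycin in total RNA are long genes. POLQ stood at 0.985 and 1.03 FPKM with rapamycin, against 1.47 and 1.52 FPKM in control (change -0.78 ± 0.10, limma, adjusted p = 0.00052). FANCC stood at 0.350 and 0.424 FPKM with rapamycin, against 0.658 and 0.606 FPKM in control (change -0.81 ± 0.11, limma, adjusted p = 0.00064). BRIP1 stood at 1.29 and 1.54 FPKM with rapamycin, against 1.92 and 1.98 FPKM in control (change -0.70 ± 0.11, limma, adjusted p = 0.00094). In each of these the rapamycin libraries lay below both controls. RBBP8 (chr18:20513295-20606449 in hg19) stood at 0.799 and 0.794 FPKM with rapamycin, against 1.05 and 1.05 FPKM in control (change -0.60 ± 0.11, limma, adjusted p = 0.0022). PALB2, RECQL4 and MUS81 rose by 0.41 ± 0.13, 0.66 ± 0.19 and 0.82 ± 0.19. These rises were lost for MUS81 (0.57, adjusted p = 0.070) and RECQL4 (0.47, adjusted p = 0.15) without replicate 2 of the control total RNA, for PALB2 without replicate 1 of it (0.26, adjusted p = 0.22), and for RECQL4 and PALB2 without either rapamycin total RNA library. BRCA1 fell by 0.38 on the log2 scale and BLM by 0.36, calls lost without scaling (-0.13 and -0.12) and without replicate 1 of the rapamycin total RNA (-0.32 and -0.30) or replicate 2 of the control total RNA (-0.31 and -0.34), and BRCA2 (-0.30 ± 0.11, adjusted p = 0.050) and FANCD2 (-0.17 ± 0.10) did not pass the test.

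Length and the rapamycin change ran together in total RNA. The rank correlation across the 39 members was -0.77, against -0.43 across all genes tested, and stayed at -0.77 without RAD51C, FANCA and FAN1. All 6 members over 100 kb fell, beside 58.4% of all genes tested in that class. None of the 7 members under 10 kb did, beside 7.16% of all genes tested in that class. With the trend over all genes removed, 5 members fell in place of 16 and 2 rose in place of 3. The date code, which differs between rapamycin and control libraries, cannot be told apart from rapamycin here.

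In the eIF4G IP with rapamycin 18 of the 39 members rose and 9 fell, beside 35.7% and 32.3% of all genes tested. The members had a median change of 0.15 against 0.07. With quantile normalization 12 members rose and 12 fell, beside 4882 and 4981 of all 15707 genes tested. The groups did not overlap after scaling in 19 higher and 12 lower members, beside 41.2% and 36.6% of all genes tested, and of the lower ones FANCB and FANCL stood at 100.2% and 108% of control in deposited FPKM. UBE2T and RAD51C, the members with the highest IP share in control cells, fell furthest. FANCF and EME1, the next in IP share, stood at -0.12 ± 0.21 and -0.34 ± 0.16 and did not pass the test. The IP share and the IP change use the same control IP libraries, so they are not independent. UBE2T stood at 4.01 and 3.13 FPKM in the rapamycin IP, against 20.8, 18.1 and 17.5 FPKM in the control IP (change -2.67 ± 0.18, limma, adjusted p = 8.2e-07), and in total RNA at 2.63 and 2.69 FPKM with rapamycin and 1.71 and 2.04 FPKM in control. RAD51C stood at 10.6 and 7.31 FPKM in the rapamycin IP, against 43.9, 36.5 and 32.1 FPKM in the control IP (change -2.37 ± 0.21, limma, adjusted p = 5.4e-06), and in total RNA at 5.63 and 5.57 FPKM with rapamycin and 3.56 and 2.52 FPKM in control. Both genes were thus lower than every control library in the IP and higher than both controls in total RNA, where neither passed the test (0.22 ± 0.20 and 0.61 ± 0.24).

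RECQL4, RAD51D and PALB2 were among the members that rose. RECQL4 stood at 5.53 and 5.74 FPKM in the rapamycin IP, against 1.58, 1.12 and 1.44 FPKM in the control IP (change 1.67 ± 0.17, limma, adjusted p = 1.5e-05). PALB2 (chr16:23614483-23652678 in hg19) stood at 0.989 and 0.954 FPKM in the rapamycin IP, against 0.299, 0.285 and 0.316 FPKM in the control IP (change 1.16 ± 0.12, limma, adjusted p = 1.3e-05). RAD51D stood at 0.811 and 0.771 FPKM in the rapamycin IP, against 0.240, 0.173 and 0.226 FPKM in the control IP (change 1.27 ± 0.17, limma, adjusted p = 7.5e-05). The groups of these genes did not overlap. BRCA2 stood at 0.579 and 0.684 FPKM in the rapamycin IP, against 0.226, 0.246 and 0.254 FPKM in the control IP (change 0.85 ± 0.10). BRCA1 rose by 0.40 ± 0.09 and BLM by 0.29 ± 0.09, while FANCD2 (0.10 ± 0.09) did not pass the test. EXO1, NBN, XRCC4, BARD1, RAD54B, RBBP8 and FANCI fell, with changes between -1.09 for EXO1 and -0.46 for FANCI.

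**Figure D4:**
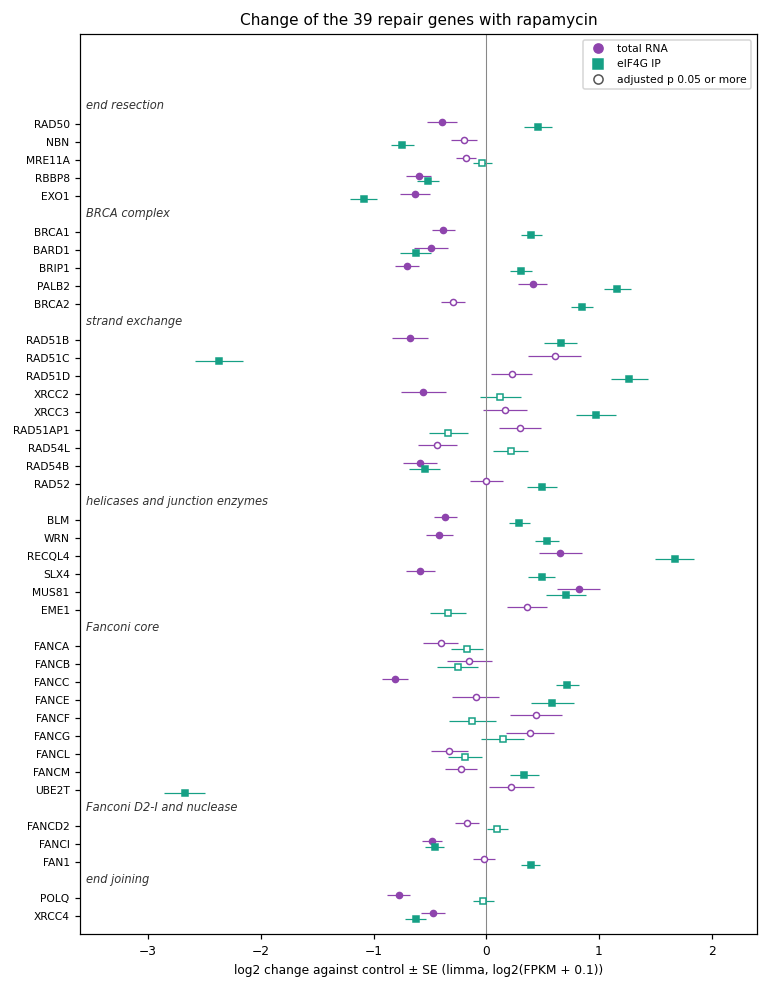
Log2 change with rapamycin against control, ± SE from limma, for each of the 39 repair genes, grouped by role, in total RNA (circles) and in the eIF4G IP (squares). Filled symbols passed the adjusted threshold of 0.05. UBE2T and RAD51C stand far to the left in the IP, at -2.67 and -2.37, and 18 members rose in the IP.

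For rapamycin too the difference between both changes was tested. The IP change was higher than the total RNA change in 18 members and lower in 5, beside 31.5% and 27.2% of all genes tested. The median was 0.41 against 0.09. This difference rose with gene body length, with a rank correlation of 0.43 across the members and 0.32 across all genes tested. It was higher in 71.0% of all genes over 100 kb and in 14.7% of those under 10 kb, beside 5 of 6 and 2 of 7 members. FANCC had the highest value, 1.53 ± 0.15 (limma, adjusted p = 3.7e-05), and BRCA2 stood at 1.14 ± 0.14 (limma, adjusted p = 0.00012). RAD51C and UBE2T had the lowest, -2.98 ± 0.32 (limma, adjusted p = 5.2e-05) and -2.90 ± 0.27 (limma, adjusted p = 2.6e-05). EME1, NBN and EXO1 were the other 3 with a lower IP change. The count of 5 became 3 without either rapamycin total RNA library or either control total RNA library, and 2 without replicate 2 of the rapamycin IP. With rapamycin 8 genes, RAD50, BRCA1, BRIP1, RAD51B, BLM, WRN, SLX4 and FANCC, fell in total RNA and rose in the IP. Among all genes tested 1135 of the 3504 that fell in total RNA rose in the IP, beside 8 of 16 members. Of the 8 genes FANCC kept both calls whichever single library was left out, and each of the others lost at least 1 call. Of the 52 further pathway genes, 14 of the 50 tested fell and 7 rose in total RNA, and 26 fell and 11 rose in the IP. Of all genes tested 22.3% fell and 16.3% rose in total RNA with rapamycin, and 32.3% fell and 35.7% rose in the IP. Of the 16 S phase genes 5 fell and 1 rose in total RNA, and 12 fell and 4 rose in the IP, where their sum was 181 and 160 FPKM with rapamycin, against 343, 339 and 324 FPKM in control. Their part in the members' values was not tested.

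The authors' deposited table carries its own TRUE or FALSE calls for these genes. In the authors' deposited table no member is marked as losing eIF4G binding after CDK12 siRNA, beside 4.21% of all genes, and 2 members, RAD51C and UBE2T, are marked as losing it with rapamycin, beside 12.4%. Differential expression after CDK12 siRNA is marked in the authors' deposited table for 9 members (EXO1, BARD1, BRIP1, RAD51AP1, RECQL4, FANCG, UBE2T, FANCI and POLQ), beside 2.12% of all genes, and with rapamycin for 0, beside 2.42%. Those calls rest on differences of log2(FPKM + 1), which shrinks the changes of genes with low FPKM, and 15 of the 39 members stood under 1 FPKM in control total RNA.

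The counting may mix overlapping genes, with its strand setting not given in the sources used here. Rows of 12 members overlap another row of the table: RAD50, MRE11A, RBBP8, RAD51D, XRCC3, RAD54L, RAD54B, MUS81, EME1, FANCL, FANCD2 and FANCI. Among the 27 that overlap none, 21 fell and 2 rose in total RNA after CDK12 siRNA, 9 fell and 1 rose in the IP, and the interaction was higher in 20 and lower in 2.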

How the data were processed

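RNA of U2OS cells was measured in 13 single-end libraries, ribosomal RNA having been removed, per the labels' protocols. Per the file headers the deposited FPKM values were made by the authors with HOMER over whole hg19 gene bodies; STAR 2.4.0k and FastQC are named in the submitters' processing notes. Values of overlapping genes are uncertain, the strand setting being not given in the sources used here, and read filters likewise. The deposited log2 differences are the authors' differences of group means of log2(FPKM + 1), and their TRUE or FALSE calls stand beside them. FPKM steps of low genes gave whole tags (100% of values, tolerance 0.02 tags) and so the depths.

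FPKM are not counts. Values were divided by median-ratio factors (0.834 to 1.22), and log2(FPKM + 0.1) was fitted with limma 3.58.1 (lmFit, eBayes with trend) in R 4.3.3, with 13 libraries in 6 groups. Genes needed an FPKM of at least 0.1 and 20 tags in at least 2 libraries. Figures and descriptions used Python 3.11.15, pandas 2.3.3, scipy 1.17.1 and matplotlib 3.10.9. The fit was tested on simulated data in which every library had the same dispersion. That simulation does not cover the wider spread between the CDK12 siRNA IP replicates. Members with full statistics are the 8 with the smallest p in each CDK12 siRNA contrast, the 4 in each other contrast, and BRCA1, BRCA2, FANCD2 and BLM; others are given more briefly. Members, lists and rules were chosen with earlier results of these data known. Promoter sequences are from RefSeq.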

Additional observations from a re-analysis of the deposited data

Results flagged for a closer look

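The change after a treatment differed between the eIF4G IP and total RNA for many members, by the interaction term of the limma fit. After CDK12 siRNA the IP change was higher than the total RNA change in 27 of the 39 genes and lower in 3 (XRCC4, RAD50 and NBN). Of all genes tested 16.9% were higher and 24% lower. With rapamycin the IP change was higher in 18 members and lower in 5 (RAD51C, UBE2T, EME1, NBN and EXO1). The shares of all genes tested were 31.5% and 27.2%, and this difference rose with gene body length among members and among all genes tested. In all settings that gave a value, 21 of the 27, 1 of the 3 (XRCC4), 6 of the 18 and 2 of the 5 (RAD51C and UBE2T) held their calls.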

How the results depend on the processing

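Of the calls on single members, 26 of the 28 falls in total RNA after CDK12 siRNA were kept in every setting tried, with FANCF lost by limma-voom on recovered tags (-1.07, adjusted p = 0.085) and FAN1 in 4 settings. So were 8 of the 15 falls in the IP after CDK12 siRNA, 4 of 16 falls and 0 of 3 rises in total RNA with rapamycin, and 7 of 9 falls and 9 of 18 rises in the IP with rapamycin. Without scaling, the median of all genes moved to -0.14 in place of 0.06 in total RNA and to 0.09 in place of -0.05 in the IP after CDK12 siRNA, to 0.27 in place of -0.09 for the interaction, and with rapamycin to 0.19 in place of -0.04 in total RNA and to 0.28 in place of 0.07 in the IP. The share of rises among all calls became 31.7% in place of 54.8%, 71.9% in place of 38.4%, 77.6% in place of 41.3%, 74.2% in place of 42.3% and 66.1% in place of 52.4% in the same order. The members' median relative to all genes in total RNA after CDK12 siRNA was -1.18 without scaling and -1.19 as reported.

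A filter at FPKM of at least 1, which leaves 24 members, gave 17 higher interactions after CDK12 siRNA, 9 rises in the IP with rapamycin, 2 lower interactions with rapamycin, and 16 lower and 4 higher members for IP against total RNA in control, as did that filter with log2(FPKM + 1), under which the IP after CDK12 siRNA had 9 falls and 1 rise. In the IP after CDK12 siRNA the rises numbered 4 without scaling and 1 with library weights or when only the compared groups were fitted. Without scaling 1 interaction after CDK12 siRNA was lower. In total RNA with rapamycin 6 members fell and 8 rose without scaling, 5 fell with the length trend removed, 7 rose with library weights, and 8 rose when only the compared groups were fitted. Quantile normalization gave 3 lower interactions with rapamycin. With single libraries left out the ranges were 1 to 5 rises in the IP after CDK12 siRNA, 6 to 18 falls and 1 to 6 rises in total RNA with rapamycin, and 2 to 7 lower interactions with rapamycin. Scaling within each fraction gives no value for comparisons across fractions.

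The direction of IP against total RNA in control reversed for MRE11A (0.11), FANCD2 (0.17) and XRCC4 (0.86) with the length trend removed, for EXO1 with the filter at 1 FPKM (-0.18, or -0.13 with log2(FPKM + 1)), and with quantile normalization for EXO1 (-0.16), PALB2 (0.21), RAD54B (0.049), FANCG (-0.49) and XRCC4 (0.34). The cause was not tested. Same-numbered CDK12 siRNA and control libraries had deviations from their group means that correlated at -0.09 to 0.03. For same-numbered IP and total RNA libraries the values were -0.07 to 0.07. With 2 libraries in a group the deviations mirror each other, so these few values cannot show whether replicates were paired. The replicate block was set within each fraction and does not pair IP with total RNA. With the replicate block the RAD54B call in the IP was lost (-0.48, adjusted p = 0.070), as were the RAD54B, RAD52 and FANCA interactions, and the counts of falls and rises in total RNA after CDK12 siRNA stayed at 28 and 3. FANCF held 28.0 tags in its lowest library, which limits its precision.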
